A study of Mus musculus with 577 samples.

Results

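The subcortical maternal complex genes described here are Nlrp5, Tle6, Ooep, Khdc3, Padi6, Nlrp4f and Zbed3, which were found by gene symbol in each deposited table and are 7 of the 22060 protein-coding genes counted. Their RNA was read in mouse oocytes, granulosa cells (GCs) and embryonic stem cells (mESCs). Ovaries of 8-week-old females were frozen, sectioned and stained, and single cells were cut out by laser capture microdissection (LCM). DRaqL, a lysis in which a denaturing detergent releases RNA from the section and is then quenched so that enzymes can act, was combined with SC3-seq, SMART-Seq v4 or Smart-seq2. The labels give no genotype, strain or treatment for the mice. By the study's own account the methods were compared on sections of the same ovary, so that the datasets below, the same-mouse set aside, may share an ovary and are not independent repeats.

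Oocytes of primary follicles and of secondary to antral follicles were cut from alcohol-fixed sections for DRaqL-SC3-seq (14 and 30 oocytes) and for SMART-Seq v4 without DRaqL (7 and 11) or with it (6 and 9). Sections fixed in formalin for 24 h, read with DRaqL and a protease, gave 5 and 7 oocytes. A mouse in proestrus gave 8 oocytes by LCM from 1 ovary and 14 grown oocytes by dissociation of cumulus-oocyte complexes of the other in medium with dibutyryl-cAMP. GCs were labelled as neighboring the oocyte or not. For dissociated GCs the paper describes cells attached to the oocyte and other cells of the complexes instead. Each library is a single cell and the labels name no animal, and each group of cells was therefore treated as a single sample. SDs therefore give the spread over cells, and no test was made between such groups. The 7 pools of 10 neighboring GCs, the 7 pools of 10 non-neighboring GCs and the 7 bulk GC samples are separate libraries, but the labels do not say whether they came from separate mice.

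The subcortical maternal complex is an assembly of proteins that lies beneath the plasma membrane of the growing oocyte and the early embryo. Its proteins are made in the oocyte from maternal RNA and are needed for the first cleavages. NLRP5 (also called MATER), TLE6 and OOEP (also called FLOPED) form its core, and KHDC3 (also called FILIA) binds to that core. PADI6 belongs to the peptidylarginine deiminase family and is needed for the cytoplasmic lattices of the oocyte. NLRP4F and ZBED3 have been found to associate with the complex.

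The genes lie on 5 chromosomes of GRCm38, with Khdc3 (chr9:73101836-73104438) and Ooep (chr9:78376109-78378725) on the same one and Nlrp4f (chr13:65177111-65205977) and Zbed3 (chr13:95323612-95337841) on another. Promoters were read from RefSeq (GRCm38.p6) as windows of 300 bases, 250 before the start of transcription and 50 from it on, and 7 of 7 genes matched. The 250 bases before the start are shown for Nlrp5 and Padi6, whose levels moved together between oocytes, and for Zbed3, whose level differed most between stages. They overlap no annotated exon. Capitals mark CANNTG, the E-box bound by basic helix-loop-helix factors such as FIGLA. The windows are chr7:23385639-23385888 (plus strand), chr4:140742644-140742893 (minus strand) and chr13:95324575-95324824 (plus strand).
Nlrp5: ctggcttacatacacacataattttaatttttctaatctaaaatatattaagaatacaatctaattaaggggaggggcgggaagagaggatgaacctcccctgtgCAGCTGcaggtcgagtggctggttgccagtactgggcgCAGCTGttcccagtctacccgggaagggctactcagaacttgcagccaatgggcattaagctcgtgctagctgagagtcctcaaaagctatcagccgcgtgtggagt
Padi6: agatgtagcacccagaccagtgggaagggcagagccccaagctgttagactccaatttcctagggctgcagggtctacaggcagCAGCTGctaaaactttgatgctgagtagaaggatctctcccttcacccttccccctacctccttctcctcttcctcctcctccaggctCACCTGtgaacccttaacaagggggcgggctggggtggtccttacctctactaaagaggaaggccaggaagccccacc
Zbed3: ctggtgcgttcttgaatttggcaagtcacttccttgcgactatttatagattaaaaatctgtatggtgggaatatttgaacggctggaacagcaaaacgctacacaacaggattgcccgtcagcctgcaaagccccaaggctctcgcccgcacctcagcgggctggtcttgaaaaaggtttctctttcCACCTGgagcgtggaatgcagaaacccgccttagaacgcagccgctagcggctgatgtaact
Of the 300-base windows, that of each of the 7 genes held CANNTG on either strand, as did 72.3% of all 32851 promoters. Of the 7 windows, only that of Tle6 held CACGTG, which is itself a CANNTG, at 2 places, against 7.15% of all promoters. On either strand, TAATTG was found in the windows of Ooep and Padi6 (8.00% of all), TAATTA in that of Nlrp5 (5.29%) and TATAAA in that of Zbed3 (13.6%). The matches of TAATTG and TATAAA lay on the strand opposite to the gene. Zbed3 has 3 promoters in the table and Nlrp5 and Tle6 have 2 each, of which the one nearest to the first exon with counts in these data was used. For Zbed3 that exon, chr13:95325237-95325344, had 0 reads in oocytes, and the window used lies inside the gene span given above. Another Zbed3 window, chr13:95323355-95323654, covers the start of that span and held 3 CANNTG and 0 TATAAA. A match is a match of letters and no binding was measured.

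Library totals over protein-coding genes ranged from 12748 to 17506401 reads. The oocyte marker list (14 genes, among them Gdf9, Zp3 and Bmp15) was read in every oocyte group, although Obox2, Obox5 and Oog1 had 0 reads in the primary oocytes of DRaqL-SMART-Seq v4. Khdc3 overlaps Gm20509 on the same strand, Dppa5a lies downstream of Ooep on the same strand and reads near annotated 3′ ends were counted, and Nlrp5 and Nlrp4f have close relatives, so reads may be shared at these genes. In the SMART-Seq v4 primary group with DRaqL, the library of oocyte 2 stood apart with 1 read on Tle6, and the comparisons that use that group are given with and without it.

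The 7 genes together took between 0.125% and 3.30% of the protein-coding reads of an oocyte library. In the DRaqL-SC3-seq oocytes the median share was 1.45% at the primary stage and 1.70% at the secondary to antral stage. It was 1.66% and 1.45% in SMART-Seq v4, 0.628% and 1.43% in DRaqL-SMART-Seq v4 and 0.487% and 1.38% in formalin-fixed sections. The share was thus close between stages in the first 2 datasets and lower at the primary stage in the other 2.

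Zbed3 differed most between stages. In DRaqL-SC3-seq its level, as log2 (RPM+1), where RPM scales reads to the library's protein-coding total, was 6.00 at the lowest, 7.22 at the median and 8.73 at the highest of 14 primary oocytes. In the 30 secondary to antral oocytes it was 10.03, 11.17 and 11.73. The groups did not overlap, as was the case, with the later oocytes higher, for 0.885% of the genes compared, and the means were 7.23 ± 0.75 (SD, n = 14) and 11.09 ± 0.43 (SD, n = 30), a difference of 3.86. A difference of means above 1 was called large.

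Nlrp4f, Tle6 and Khdc3 were also higher in the later oocytes, with overlap. Nlrp4f differed by 1.99, from 7.49 ± 0.53 (SD, n = 14) to 9.48 ± 0.50 (SD, n = 30). Khdc3 differed by 1.25 and Tle6 by 1.21. In contrast, Nlrp5, Padi6 and Ooep stayed within 1, with differences of −0.32, −0.33 and −0.67. Thus 4 of 7 genes were higher by more than 1 and 0 were lower, against 33.3% higher and 15.3% lower among the 10853 genes whose average level was at least 2. The median difference was 1.21 over the 7 genes and 0.37 over all those genes.

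The same 4 genes were higher by more than 1 in each of the other 3 datasets. In SMART-Seq v4 the differences were 3.26 for Zbed3, 2.18 for Khdc3, 1.42 for Tle6 and 1.26 for Nlrp4f, where 31.1% of genes were higher and 16.9% lower. Zbed3 was again higher without overlap between stages, as were 4.59% of genes. There Nlrp5 (−1.25) and Padi6 (−1.04) were lower by more than 1, the latter with means of 12.02 ± 0.39 (SD, n = 7) and 10.98 ± 0.54 (SD, n = 11), and Ooep differed by −0.88. By the ratio of mean RPM, Padi6 differed by −0.988 and only Nlrp5, at −1.13, was past 1.

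In DRaqL-SMART-Seq v4 the differences were larger, at 5.08 for Zbed3, 3.76 for Khdc3, 2.94 for Tle6 and 2.78 for Nlrp4f, and none of these 4 genes overlapped between stages (35% of genes higher, 22.2% lower, and 8.49% higher without overlap). Without primary oocyte 2, chosen for leaving out after its value was seen, they were 4.61, 3.5, 1.83 and 2.17. Nlrp5, Ooep and Padi6 differed by 0.53, 0.31 and 0.20, and without that oocyte by 0.129, 0.24 and 0.046.

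In formalin-fixed sections Zbed3 was 6.84, 6.32, 8.81, 9.79 and 10.42 in the 5 primary oocytes. In the 7 later oocytes it was 12.37 at the lowest, 12.78 at the median and 13.06 at the highest, so that the groups again did not overlap, nor did those of Khdc3 and Nlrp4f (4.41% of genes were higher without overlap). The differences were 4.36 for Zbed3, 2.65 for Khdc3, 1.68 for Nlrp4f and 1.28 for Tle6 (26.6% of genes higher, 25.5% lower). Nlrp5 spread from 6.16 to 10.99 in the primary oocytes, and its difference of 0.42, with those of Ooep (0.60) and Padi6 (−0.05), was smaller than that spread.

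**Figure D1:**
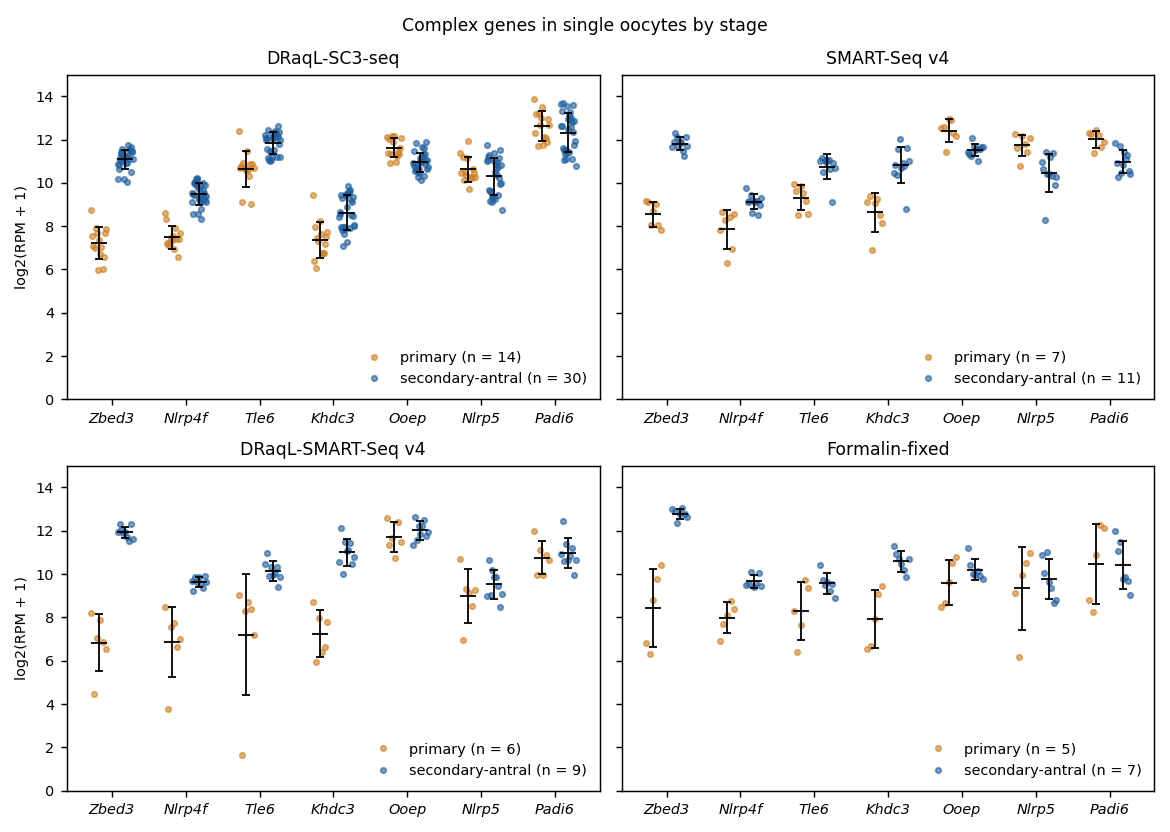
Levels of the 7 genes as log2 (RPM+1) in single oocytes of primary (orange) and secondary to antral (blue) follicles in 4 datasets. Each point is 1 oocyte and bars give the mean and SD over oocytes. Zbed3 does not overlap between the stages in any dataset, whereas Nlrp5, Ooep and Padi6 overlap in all of them.

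Within single libraries, which removes the library total, the log2 distance of Zbed3 from Nlrp5 shifted in the same way. It lay between −5.13 and −2.42 in the DRaqL-SC3-seq primary oocytes and between −1.58 and 2.45 in the later ones. In SMART-Seq v4 it lay between −4.24 and −2.50 and between −0.11 and 3.99. In DRaqL-SMART-Seq v4 the ranges were −2.73 to −1.25 and 1.64 to 3.82, and in formalin-fixed sections −2.31 to 0.15 and 1.33 to 4.11. The stages did not overlap in any of the 4 datasets for this pair. The pair joins the gene that differed most with one that stayed within 1 or was lower, so the ranges restate the differences above. No share over other pairs of genes was computed.

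Other genes of the oocyte gave the context. Of 26 other maternal-effect and lattice genes, 19, 19, 20 and 18 were higher by more than 1 in the later oocytes of DRaqL-SC3-seq, SMART-Seq v4, DRaqL-SMART-Seq v4 and formalin-fixed sections, and 2, 1, 1 and 1 were lower. Nlrp2 (4.94 in DRaqL-SC3-seq), Npm2, a histone-binding chaperone of the egg (3.19), and Dnmt1, the maintenance DNA methyltransferase (1.73), were among the higher ones. Figla, which encodes a factor of early follicle formation, was lower in all 4, by −2.23, −2.18, −2.41 and −2.27. Nlrp14 (0.54 in DRaqL-SC3-seq) and Dppa3 (−0.66) stayed within 1 there, as Nlrp5, Padi6 and Ooep did. Of the oocyte markers compared, 13 of 14, 11 of 13, 12 of 13 and 12 of 13 were higher by more than 1 in the same 4 datasets, and 0 were lower. Their median differences were 4.56, 6.32, 7.88 and 4.71, each above that of Zbed3 in the same dataset. Granulosa RNA moved with stage as well. The summed level of 11 granulosa markers was 42.4 to 1523 RPM, with a median of 584 RPM, in the DRaqL-SC3-seq primary oocytes and 63.4 to 1089 RPM, with a median of 152 RPM, in the later ones, and Inhbb was at 0 in the former. Its part in the differences was not tested.

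The 7 genes varied between oocytes that share a stage label, and partly together. The later label joins secondary to early antral follicles, and the paper describes oocyte expression that changed continuously with oocyte size. The part of growth in these correlations was not tested. Over the 30 secondary to antral DRaqL-SC3-seq oocytes, the 10 pairs among Nlrp5, Tle6, Ooep, Khdc3 and Padi6 had Pearson's r between 0.76 and 0.95. Nlrp4f ran against these 5 genes, with r between −0.77 and −0.59, and Zbed3 did so less, with r between −0.53 and −0.25. These are descriptions over oocytes that share a method and possibly an ovary, and r with the log10 library total lay between −0.37 and 0.15. In the other groups whose correlations follow, r with the library total reached further from 0, from −0.65 to 0.72 in the LCM oocytes of the same mouse, from −0.29 to 0.78 in the dissociated ones, from −0.42 to 0.79 in SMART-Seq v4, from −0.59 to 0.51 in DRaqL-SMART-Seq v4 and from −0.49 to 0.62 in formalin-fixed sections. The part of the library total in those correlations was not tested.

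Over the 14 primary DRaqL-SC3-seq oocytes, where r with the library total was between −0.36 and 0.01, the 10 pairs had r between 0.50 and 0.84, but there Nlrp4f (0.28 to 0.67) and Zbed3 (0.21 to 0.58) ran with the 5 genes. In the later DRaqL-SMART-Seq v4 oocytes the 10 pairs had r between 0.51 and 0.95 and Nlrp4f had r between −0.84 and −0.62 with the 5 genes (n = 9). In SMART-Seq v4 without DRaqL the pairs ranged from −0.24 to 0.80 (n = 11), and in the dissociated grown oocytes from −0.12 to 0.86 (n = 14), a wider spread with 7 and 8 of 10 pairs above 0. In formalin-fixed sections (n = 7) and in the LCM oocytes of the same mouse (n = 8) the pairs had r from 0.53 to 0.94 and from 0.30 to 0.90.

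Nlrp4f did not run against the 5 genes in all groups. Its r with them was between −0.84 and −0.03 in the dissociated oocytes, but between −0.40 and 0.57 in the LCM oocytes of the same mouse, −0.43 and 0.16 in formalin-fixed sections and −0.05 and 0.56 in the later SMART-Seq v4 oocytes. In the 7 primary SMART-Seq v4 oocytes it was between −0.40 and −0.15, unlike in the primary DRaqL-SC3-seq oocytes, while the 10 pairs among the 5 genes had r from 0.61 to 0.94. Zbed3 did not run against the 5 genes in all groups either. Its r was −0.82 to 0.005 in the LCM oocytes of the same mouse and −0.50 to 0.23 in the dissociated ones. In later oocytes it was −0.53 to 0.57 in SMART-Seq v4, −0.14 to 0.09 in DRaqL-SMART-Seq v4 and −0.17 to 0.55 in formalin-fixed sections. In primary SMART-Seq v4 oocytes it was 0.41 to 0.88.

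**Figure D2:**
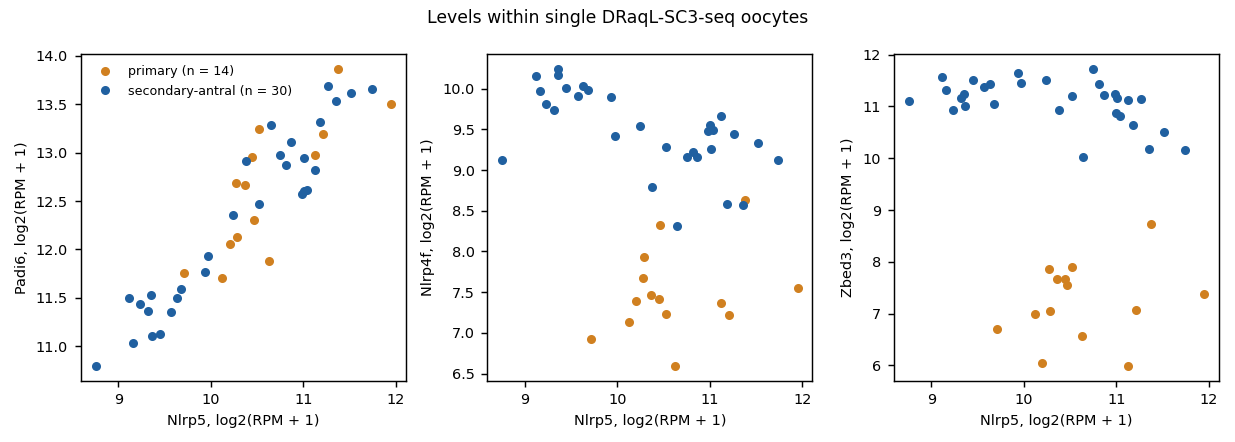
Padi6, Nlrp4f and Zbed3 plotted against Nlrp5, all as log2 (RPM+1), in single DRaqL-SC3-seq oocytes, with primary oocytes in orange and secondary to antral oocytes in blue. Padi6 rises with Nlrp5 at both stages, while Nlrp4f falls with Nlrp5 in the later oocytes.

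Among 7213 other genes with a mean of at least 4, the 5 whose levels were most like the mean z-score of the 7 genes over all 44 DRaqL-SC3-seq oocytes were Gm20509 (r = 0.92), the tubulin gene Tuba1c (0.92), Pkd2l2 (0.90), Nlrp14 (0.87) and Mtmr14 (0.87). Gm20509 is the gene that overlaps Khdc3.

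Serial sections of 8 oocytes, each read in 2 sections, gave the spread within an oocyte. Padi6 ranged from 11.14 to 13.77 in the first sections and had an SD of 0.79 between oocytes against 0.23 within them. For Nlrp5 the SDs were 0.90 and 0.27, and for Ooep 0.27 and 0.098. The sections of an oocyte therefore lay closer to each other than the oocytes did for these genes, with r between sections of 0.95, 0.94 and 0.88.

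Tle6 (r = 0.77) and Khdc3 (r = 0.67) were in between. For Zbed3 the SD was 0.33 between oocytes and 0.34 within them (r = 0.30), and for Nlrp4f 0.16 and 0.19 (r = 0.15), so that oocytes of this set could not be told apart by these 2 genes.

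**Figure D3:**
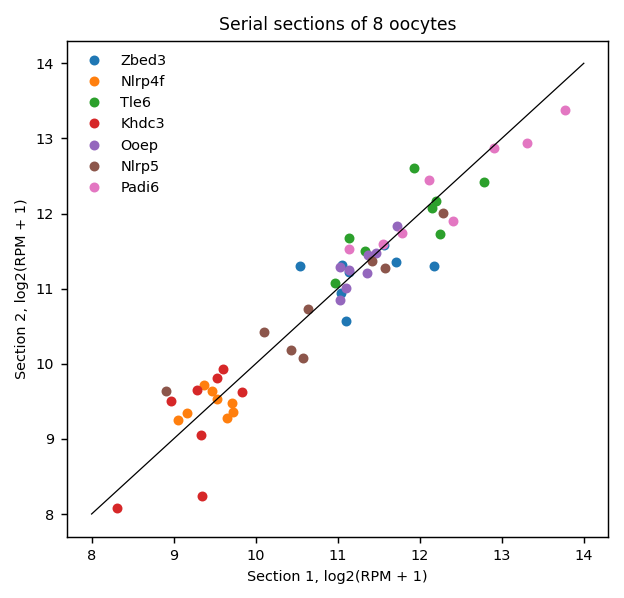
Level in the first section against level in the second, as log2 (RPM+1), for 8 oocytes and 7 genes, with the line of equal values. Nlrp5 and Padi6 spread along the line, whereas Zbed3 and Nlrp4f form compact clouds across it.

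DRaqL was compared with lysis without it in SMART-Seq v4. In the secondary to antral oocytes 0 of 7 genes differed by more than 1, where 8.02% of genes were higher with DRaqL and 11.6% lower. The largest difference among the 7 was that of Nlrp5, from 10.47 ± 0.88 (SD, n = 11) to 9.52 ± 0.69 (SD, n = 9), or −0.95. Zbed3 differed by 0.11 and Padi6 by −0.02.

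In the primary oocytes 5 of 7 were lower with DRaqL, where 16.9% of genes were higher and 21.9% lower. Of the other maternal-effect genes compared, 10 of 19 were lower and 3 higher, and of the oocyte markers 4 of 8 were lower and 0 higher. The median differences were −1.38 over the 7 genes, −1.14 over the other maternal-effect genes and −1.37 over the oocyte markers. Nlrp5 was 10.80 at the lowest, 11.78 at the median and 12.24 at the highest without DRaqL and 6.97, 9.20 and 10.72 with it, without overlap (0.963% of genes were lower without overlap) and with a difference of −2.74. Tle6 differed by −2.11, Zbed3 by −1.71, Khdc3 by −1.38 and Padi6 by −1.26, while Nlrp4f (−0.997) and Ooep (−0.70) stayed within 1. Without primary oocyte 2 the differences were −2.33 for Nlrp5, −1.24 for Zbed3, −1.12 for Khdc3, −1.10 for Padi6, −0.995 for Tle6, −0.629 for Ooep and −0.383 for Nlrp4f, and 4 genes were lower. Whether the primary oocytes of both groups were of the same size was not tested.

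In the mouse whose ovaries were used for LCM and for dissociation, 4 of 7 genes were higher by more than 1 in the LCM oocytes, where 20.3% of genes were higher and 19.4% lower. Of the 14 oocyte markers 0 were higher and 7 lower, with a median difference of −0.89. Of the 26 other maternal-effect genes 6 were higher and 4 lower, with a median of −0.04. Tle6 was 10.67 at the lowest, 11.04 at the median and 11.31 at the highest of 8 LCM oocytes and 9.48, 9.94 and 10.27 in 14 dissociated ones, without overlap, and Khdc3 did not overlap either, beside 3.2% of all genes compared. The differences were 1.63 for Nlrp5, 1.28 for Padi6, 1.08 for Tle6 and 1.03 for Khdc3. Ooep (0.82) and Nlrp4f (0.43) stayed within 1, and Zbed3 lay on the other side of 0, at −0.50. Besides the isolation, follicle stage, handling and lysis and cDNA chemistry (DRaqL-Smart-seq2 for LCM, Smart-seq2 for dissociated oocytes) differ between these groups and cannot be told apart.

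Exon and junction reads were counted in 5 secondary to antral oocytes with Y-shaped adapters, whose numbers recur among the DRaqL-SC3-seq oocytes. By the paper's account these libraries were made from cDNA of those same oocytes. Of the annotated exons of the 7 genes, of which some are overlapping versions of the same exon, 96 had reads and 11 had none, and 82 were above 2 TMM-scaled CPM. Most genes had few reads at the 5′ end, as from 13185 in the last exon of Nlrp5 to 10 in its first, and from 103667 to 44 in Padi6, but Ooep had 26026 and 18188. Reads that map to several places were counted here, which bears on Nlrp5 and Nlrp4f. Zbed3 was read almost wholly from its last exon, at chr13:95336056-95337841, with 50313 reads, against 0 in the first and 10 on junctions.

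Per kb of last exon, the summed reads were 227840 for Padi6, 176610 for Tle6, 54483 for Nlrp5, 28171 for Zbed3, 22192 for Nlrp4f, 16441 for Ooep and 6127 for Khdc3. With reads gathered at 3′ ends, these values depend on the length of the last exon, which was 236 bases in Tle6 and 1786 bases in Zbed3, and give no order of transcript numbers. In oocytes 1 to 5, the last exon of Nlrp5 had 1224, 3334, 3409, 2047 and 3171 reads and that of Nlrp4f had 3478, 2252, 1767, 3066 and 1709. Oocytes 1 and 4 were thus the lowest in Nlrp5 and the highest in Nlrp4f. These reads were not scaled to the exon totals, which ran from 6462959 to 7865860. They come from oocytes already in the DRaqL-SC3-seq correlations above and are not a separate observation.

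In mESCs, cultured pluripotent cells read as a reference, Ooep and Khdc3 were the genes of the 7 with a mean above 2. Ooep was 4.51 ± 1.44 (SD, n = 45) in freshly dissociated cells and 4.89 ± 1.49 (SD, n = 36) in LCM cells, and Khdc3 was 3.47 ± 1.97 (SD, n = 45) and 3.62 ± 2.86 (SD, n = 36). Nlrp5 had reads in 8 of 45 and 0 of 36 cells, and the means of the other genes were at most 1.38. The 0 of 7 differences above 1 compare with 10.4% of genes in either direction, and only the 2 genes with a mean above 2 were among those 8261 genes.

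Spliced reads were seen for Ooep in mESCs. The junction between chr9:78378157 and chr9:78378354 had 7 to 192 reads in each of 10 mESC libraries with Y-shaped adapters, which were pooled because their labels as fresh or LCM may be crossed. The junction of Khdc3 had 13 reads in 2 of these libraries, those of Tle6 had 137 in 6, and Nlrp5 and Zbed3 had 0.

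All 7 genes were higher by more than 1 in oocytes than in GCs read by the same method in all 6 comparisons that could be made, which come from 4 tables, as were 77.3% of genes in DRaqL-SC3-seq, 78.4% in SMART-Seq v4, 58% in DRaqL-SMART-Seq v4, 54.6% in formalin-fixed sections, 68.4% in LCM cells and 65.4% in dissociated cells of the same mouse. The differences lay between 5.62, for Zbed3 in formalin-fixed sections, and 9.34, for Nlrp5 in LCM cells of the same mouse. Zbed3 had the smallest difference of the 7 genes in each comparison, for example 6.21 in DRaqL-SC3-seq against 7.06 to 8.13 for the others.

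Reads on these genes were also seen in single GCs. Over 8 datasets, 146 of 330 GCs (44.2%, Clopper-Pearson 95% interval 38.8% to 49.8%) had reads on Nlrp5 and 274 of 330 (83%, 78.5% to 86.9%) on Zbed3. With at least 5 reads required these shares were 20.9% and 67.0%, and with cells thinned to 50000 reads 22.6% and 66.7%. These intervals treat the 330 cells as independent draws at a common rate, and they leave out differences between datasets, ovaries and animals. Detection of Nlrp5 differed between runs of cell numbers and between inferred library pools of dissociated GCs, as given below. Libraries without molecular identifiers were used. Neighboring GCs had a higher mean RPM than non-neighboring GCs in 8 of 8 datasets for Nlrp5, Ooep, Khdc3, Padi6, Nlrp4f and Zbed3, and in 7 of 8 for Tle6. Of all genes with reads at both positions of each dataset, 2.61% were higher in 8 of 8, as were 8 of 11 such oocyte markers. The percentage of cells with reads was higher in neighboring GCs in 8 of 8 datasets for Khdc3 and Padi6, in 7 of 8 for Nlrp5, Ooep, Nlrp4f and Zbed3 and in 5 of 8 for Tle6. These datasets may share an ovary, and no test was made. DRaqL-SC3-seq GCs that the paper set apart for profiles mixed with those of oocytes were left out. The paper also reports mixed profiles among dissociated GCs, more often in those attached to oocytes, and these cells were kept. In dissociated neighboring GCs Nlrp5 had a mean of 74.2 RPM, a median of 1.77 RPM and a highest value of 706 RPM.

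In LCM-seq, for example, Khdc3 had reads in 12 of 17 neighboring GCs and 1 of 20 non-neighboring GCs. In formalin-fixed sections Nlrp5 had reads in 6 of 12 and 1 of 12 GCs, and Zbed3 in 12 of 12 and 11 of 12. In SMART-Seq v4, in contrast, Nlrp5 had reads in 8 of 17 and 9 of 17 GCs, and among dissociated GCs Tle6 had reads in 7 of 14 and 13 of 21. Over all datasets Zbed3 had reads in 145 of 161 neighboring and 129 of 169 non-neighboring GCs, and Nlrp5 in 85 and 61.

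All 7 genes were read in the same cell in 74 of 330 GCs. These were 12 of 31 neighboring and 8 of 26 non-neighboring GCs of DRaqL-SC3-seq. In LCM-seq they were 10 of 17 and 0 of 20, and in DRaqL-Smart-seq2 8 of 15 and 2 of 19. The counts were lower in SMART-Seq v4 (2 of 17 and 2 of 17), DRaqL-SMART-Seq v4 (3 of 20 and 0 of 19) and formalin-fixed sections (3 of 12 and 0 of 12). Dissociated GCs had 4 of 14 and 6 of 21, and LCM GCs of the same mouse 8 of 35 and 6 of 35.

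The level in GCs was set against the oocyte of the same table. In neighboring DRaqL-SC3-seq GCs, the mean RPM of Zbed3 was 12.4% of that in secondary to antral oocytes and the median of the 6 other genes 5.27%, beside a median of 11.8% over 14 other oocyte genes. A few cells carried these means, since Zbed3 there had a mean of 279.6 RPM, a median of 35.5 RPM and a highest value of 1745 RPM, and its median was 14.6 RPM in cells numbered up to 69 and 545.7 RPM in those from 72. In non-neighboring DRaqL-SC3-seq GCs these were 3.61%, 3.07% and 3.52%. In dissociated non-neighboring GCs they were 1.70%, 1.12% and 0.911%. Over 6 datasets and both positions, the percentage for Zbed3 was between 0.988 and 7.34 times the median of the 14 genes, the highest being that of non-neighboring DRaqL-SMART-Seq v4 GCs (0.549% against 0.0749%).

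Detection also differed between runs of cell numbers, whose meaning the labels do not give. Of the DRaqL-SC3-seq GCs numbered up to 69, Nlrp5 had reads in 6 of 22 neighboring and 6 of 20 non-neighboring cells. Of those numbered from 72, it had reads in 9 of 9 and 6 of 6, where Zbed3 and Padi6 also had reads in all.

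Among the dissociated GCs, cells whose library pool also held an oocyte and cells whose pool did not were set apart. The pools were inferred from a pair number in the library names. Whether that number marks a library pool was not tested. Nlrp5 had reads in 13 of 20 cells of the former and 1 of 15 of the latter, Padi6 in 16 of 20 and 1 of 15, and Nlrp4f in 18 of 20 and 2 of 15. Zbed3 had reads in 20 of 20 and 14 of 15, so that it alone of the 7 genes was read in most cells of pools without an oocyte. In LCM GCs of the same mouse the split was not the same for all genes. Among neighboring cells of pools with and without an oocyte, Nlrp5 had reads in 3 of 10 and 12 of 25, Nlrp4f in 8 of 10 and 9 of 25, and Ooep in 10 of 10 and 16 of 25. Among non-neighboring cells Nlrp5 had reads in 6 of 12 and 8 of 23. The part of the library pools in the reads on these genes was not tested.

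**Figure D4:**
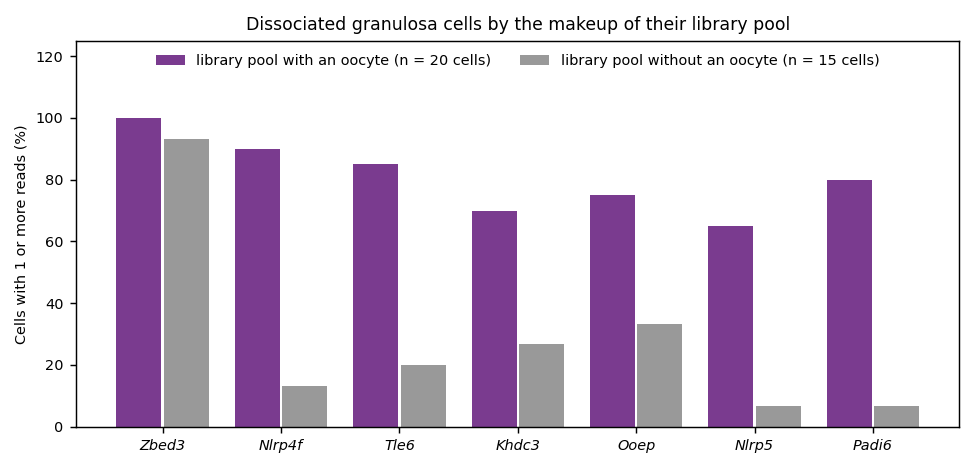
Percentage of dissociated GCs with 1 or more reads on each gene, in 20 cells from library pools that held an oocyte (purple) and 15 cells from pools that did not (gray), both positions together. Pools were inferred from a pair number in the library names. Zbed3 is at 100% and 93.3%, whereas Nlrp5 is at 65% and 6.67%.

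Pools of 10 GCs from early antral follicles allowed a test of position. Zbed3 was 76.3 RPM at the lowest, 117 RPM at the median and 961 RPM at the highest of 7 neighboring pools and 3.27, 18.6 and 63.5 RPM in 7 non-neighboring pools, without overlap, as was the case for 0.577% of the genes tested. Its log2 fold change was 3.55 (SE 0.745, edgeR quasi-likelihood test, adjusted p = 0.0336 over 9704 genes), and it was higher in 7 of 7 neighboring pools than in any non-neighboring pool. The adjusted p exceeded 0.05 when any 1 pool number was left out, between 0.0560 and 0.320.

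Ooep was 60.5, 127 and 401 RPM in the neighboring pools and 0, 0.70 and 32.3 RPM in the others, also without overlap, with a log2 fold change of 5.03 (SE 1.22, adjusted p = 0.0892). The fold changes of Khdc3 (5.48, adjusted p = 0.167), Padi6 (3.76, adjusted p = 0.206) and Tle6 (2.50, adjusted p = 0.998) did not pass in edgeR either. Non-neighboring pool 2 had 255 RPM of Tle6, above 5 of 7 neighboring pools, and without pool number 2 the fold change of Tle6 was 4.39 (adjusted p = 0.555).

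Nlrp5 and Nlrp4f were left out by the filter on low counts. Nlrp5 was 0.17, 69.7 and 117 RPM in the neighboring pools and 0, 0.12 and 1.40 RPM in the others. Neighboring pool 7 had 1 read on Nlrp5, whereas its Zbed3 was 76.3 RPM.

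Thus 1 of the 5 genes tested was higher and 0 were lower, against 0.453% and 0.0% of all genes. With DESeq2, 6 of 7 were higher (all but Tle6), against 1.58% of 19026 genes, which also called 110 genes lower. At an unadjusted p under 0.05, edgeR had 157 genes lower. Of 14 other oocyte markers 9 were higher in edgeR, among them Gdf9, a growth factor of the oocyte, with a log2 fold change of 6.28 (adjusted p = 0.0197). Of 26 other maternal-effect genes 18 were tested and 7 were higher, among them Zar1 with 5.54 (adjusted p = 0.0103). The summed level of the 14 markers was 856 to 8865 RPM in neighboring and 2.34 to 151 RPM in non-neighboring pools, and that of the 11 granulosa markers 4092 to 12431 and 2477 to 16729 RPM.

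Relative to the oocyte sections of the same table, the mean RPM of neighboring pools was 12.7% for Zbed3 and 2.90% to 8.27% for the others, beside a median of 10.5% over the 14 markers. In non-neighboring pools it was 0.986% for Zbed3, 1.23% for Tle6 and at most 0.329% for the others, beside a median of 0.192% over the 14 markers. For Tle6 that mean leaned on the single high non-neighboring pool named above. Fewer cells of a type and less RNA per cell cannot be told apart in pools and bulk samples.

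Bulk GCs, from which the oocyte had been removed where present, ranged widely. Nlrp5 was 14.1, 0.62, 66.6, 52.7, 9.29, 0 and 0 RPM in bulk samples 1 to 6 and 8, and Zbed3 was 27.7, 51.6, 46.1, 120, 34.2, 11.1 and 9.41 RPM. Samples 6 and 8 had 0 reads on Nlrp5 and 83 and 36 reads on Zbed3. The order of the samples was therefore not the same for both genes.

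**Figure D5:**
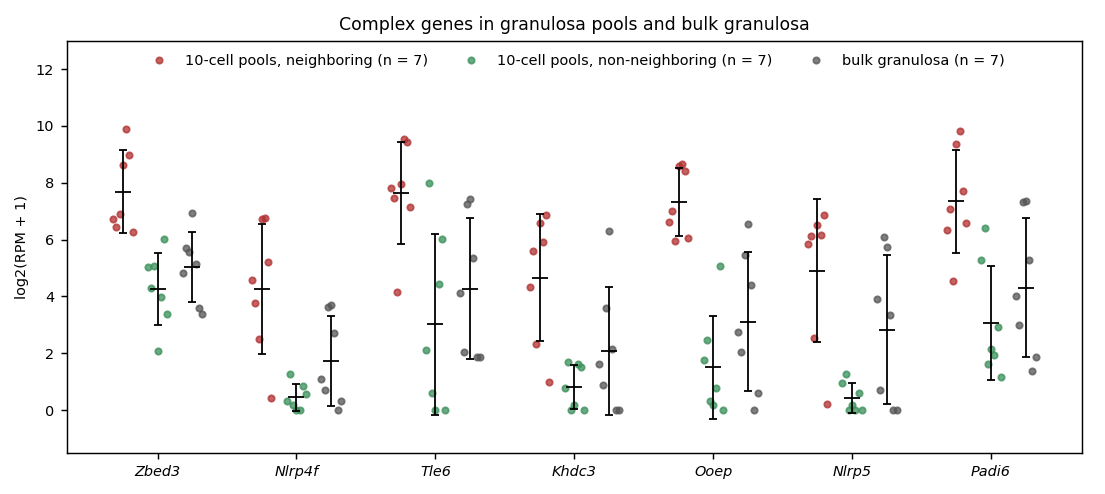
Levels as log2 (RPM+1) in 7 neighboring pools (red), 7 non-neighboring pools (green) and 7 bulk GC samples (gray), with 1 point per library and bars for the mean and SD. Zbed3 and Ooep do not overlap between the pools, and Zbed3 has reads in all libraries.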

How the data were processed

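For 577 samples, the authors deposited raw counts of reads on genes, exons and junctions, made with fastp 0.20.0, cutadapt 1.16, HISAT2 2.1.0 (GRCm38), HTSeq 0.10.0 and, for exons, featureCounts 2.0.1, without normalization. All count columns were matched to sample labels. Counts were divided by the total over protein-coding genes (RPM) and given as log2 (RPM+1). Single-cell groups were described without tests. Pools were tested with edgeR 4.0.16 (quasi-likelihood test, TMM, filterByExpr, Benjamini-Hochberg over all genes, threshold 0.05) in R 4.3.3. DESeq2 1.42.0, other pseudocounts, scalings, filters, thinning to 50000 reads and left-out libraries were alternatives. The edgeR step was tested on simulated data, where 1, 3, 11 and 14 of 50 genes each, changed 2-, 4-, 8- and 16-fold, were recovered with 0 false calls among 9193 genes. Python 3.11.15 with pandas 2.3.3 and scipy 1.17.1 did the rest. The genes and lists were chosen with earlier results of these data known. All 7 genes were followed in each comparison, but not all are given by name or value in each. Of other genes, those of 2 lists and the 5 most alike are named. ERCC spike-in tables were not used.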

Additional observations from a re-analysis of the deposited data

Results flagged for a closer look

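The 7 genes were examined in 9 groups of 4 to 10 libraries for a library far from the rest, and 1 of these 63 sets of values was marked, where chance alone marks about 1 in 20. Tle6 in primary oocyte 2 of DRaqL-SMART-Seq v4 was at a log2 (RPM+1) of 1.65, whereas the next lowest of the 6 oocytes was at 7.17. The same library was also the lowest of its group for Nlrp5 (6.97), Khdc3 (5.93), Nlrp4f (3.79) and Zbed3 (4.49).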

How the results depend on the processing

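Over other pseudocounts, TMM scaling, ratios of mean RPM and left-out oocytes, no large difference (above 1 either way) among the 7 genes changed direction. Smaller differences were not followed for direction. Over all alternatives, including those for GCs, pools and exons, 152 checks of main counts or shares were the same and 33 moved. In SMART-Seq v4 the genes lower in later oocytes numbered 1 by the ratio of mean RPM. In mESCs 1 gene was lower with a pseudocount of 0.1, and 2 were higher and 1 lower by the ratio of mean RPM. GCs with Nlrp5 reads fell to 20.9% at 5 reads or more and to 22.6% when thinned, and those with Zbed3 reads to 67.0% and 66.7%. Nlrp5 was read in 28.6% of DRaqL-SC3-seq GCs numbered up to 69 and 100% from 72 (Zbed3 100%). In dissociated GCs of inferred pools with and without an oocyte, Nlrp5 was read in 65% and 6.67% (Zbed3 100% with).

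In the pools, 44 genes were higher in edgeR, 301 in DESeq2 and 5 to 34 when a pool number was left out (5 without pool 5, 6 without pool 4). Genes lower numbered 0, 110 in DESeq2, 1 without the filter on low counts and 0 to 1 with a pool number left out. Of the 7 genes, 1 was higher in edgeR, 6 in DESeq2 and 0 to 1 with a pool number left out, the 1 without pool 6 being Ooep (adjusted p = 0.0435). With the pool number as a replicate block in edgeR, 3 genes and 0 of the 7 were higher, and Zbed3 had an adjusted p of 0.193. Same-numbered pools had r between 0.0143 and 0.204, and 4 of 7 correlated best with their own number. The labels give each number to a neighboring and a non-neighboring pool but do not say what these share. Whether the pools are paired was thus not settled, and the main values were made without the block. The cause of these changes was not tested.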

Other observations

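The table of cells with a mixed profile held 3 further DRaqL-SC3-seq GCs, 1 neighboring and 2 non-neighboring, each with reads on all 7 genes. The neighboring cell had 74 reads on Nlrp5 (118 RPM), 538 on Tle6 (860 RPM) and 405 on Zbed3 (648 RPM). The non-neighboring cells had 24 and 47 reads on Nlrp5 and 169 and 67 on Zbed3.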
